A study of Mus musculus with 11 samples.

Results

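The genes of the Hippo pathway and its TEAD transcription factors were examined in a map of accessible chromatin from MPC2 cells, a mouse bone lineage model. The 10 genes were Tead1, Tead2, Tead3, Tead4, Yap1, Wwtr1, Lats1, Lats2, Amotl2 and Ajuba, out of 21938 annotated protein-coding genes. A region was assigned to a gene when it overlapped the gene body or the 20 kb before it, in GENCODE vM21 coordinates on the mm10 build. By this rule 77 of the 94963 regions of the map lay at the 10 genes.

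MPC2 is a clone of conditionally immortalised mesenchymal progenitors that divides at a permissive temperature and matures in osteogenic medium. ATAC-seq, in which the Tn5 transposase cuts and tags open DNA, gave data for the 11 cultures kept by the authors: 3 of undifferentiated cells (MSC) with DMSO vehicle, 3 of MSC with the hypoxia mimetic FG-4592 (Roxadustat), 2 of cells kept in osteogenic medium for 3 weeks (osteocytes) with vehicle, and 3 of osteocytes with FG-4592. The drug was given at 50 uM over 48 hours, and all cultures carried the same line with no engineered genotype given in the labels. The design addressed the response of chromatin to a drug that mimics hypoxia in both cell stages, but the list analysed here held 1 value per region over all cultures. From it no contrast of drug or stage, no replicate error and no depth per culture could be given, and the values below describe the pooled map.

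In the Hippo pathway a cascade of kinases that ends in LATS1 and LATS2 phosphorylates the co-activators YAP1 and TAZ (the product of Wwtr1) and keeps them out of the nucleus. When the kinases are quiet, YAP1 and TAZ enter the nucleus and bind the DNA-binding TEAD proteins, which recognise the sequence CATTCC and switch on genes of growth and matrix contact. The pathway responds to cell density and to mechanical load, and YAP1 and TAZ have known roles in the choice of mesenchymal progenitors between bone and fat and in osteocytes.

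The label of the cells was checked against marker genes, with the share of all coding genes that had a region within 1000 bp of a transcript start, 64.1%, as background. Such a region was found at 9 of 10 mesenchymal and osteoblast markers (Thy1 lacked one) and at 2 of 6 osteocyte markers, Dmp1 and Fgf23, with none at Phex, Sost, Mepe or Pdpn, so the osteocyte share lay below the background. Among markers of other cells, a region was found at 0 of 4 muscle genes, 1 of 4 epithelial genes (Grhl2), 1 of 4 blood genes (Spi1), 2 of 4 endothelial genes (Pecam1 and Kdr) and 3 of 4 neural genes (Rbfox3, Snap25 and Syp), the last share above the background. Among the genes with such a region, median levels were 1.62 log2 CPM for the epithelial, 3.38 for the blood, 1.52 for the endothelial and 2.41 for the neural genes, against 4.93 for the mesenchymal and 3.65 for the osteocyte genes. An accessible start is not expression, and the part that other cells had in the regions at the 10 genes was not tested.

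The DNA under the regions was searched for the sequence that TEAD proteins recognise. Of the 77 regions, 29 (37.7%) held the TEAD core CATTCC on either strand, near the 31.5% of the whole map and the 35.8% of regions of like width and kind. The stretches that follow surround a core in the region of highest level that lay away from transcript starts and held one, for each gene that had such a region. Each is written 5′ to 3′ on the plus strand of mm10 (GRCm38), with CATTCC, or its reverse complement GGAATG, in capitals. The last stretch is shown because a TEAD core and an AP-1 site (TGACTCA or TGAGTCA, the motif of the FOS and JUN proteins, also in capitals) lay close together there. Tead2 had a core only in a region at the start of its neighbour Ccdc155, and the Lats1 regions held none, so neither has a stretch here.
Tead1 region 4 (intron 1), chr7:112697018-112697123: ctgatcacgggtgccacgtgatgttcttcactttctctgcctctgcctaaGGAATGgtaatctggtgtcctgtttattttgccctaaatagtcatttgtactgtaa
Tead3 region 3 (around coding exon 2), chr17:28340716-28340821: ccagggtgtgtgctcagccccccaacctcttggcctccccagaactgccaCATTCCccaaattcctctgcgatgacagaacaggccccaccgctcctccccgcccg
Tead4 region 6 (intron 1), chr6:128282244-128282349: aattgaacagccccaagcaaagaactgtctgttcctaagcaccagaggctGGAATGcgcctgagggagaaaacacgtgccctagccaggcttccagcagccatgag
Yap1 region 2 (intron 4), chr9:7962026-7962131: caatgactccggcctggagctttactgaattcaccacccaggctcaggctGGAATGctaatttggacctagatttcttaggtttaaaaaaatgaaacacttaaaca
Wwtr1 region 9 (intron 4), chr3:57470821-57470926: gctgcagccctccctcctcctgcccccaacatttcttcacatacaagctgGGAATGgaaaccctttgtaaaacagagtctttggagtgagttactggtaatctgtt
Lats2 region 1 (upstream), chr14:57760591-57760696: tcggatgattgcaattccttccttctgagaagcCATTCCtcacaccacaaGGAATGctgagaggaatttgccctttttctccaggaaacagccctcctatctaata
Amotl2 region 4 (intron 5), chr9:102726061-102726166: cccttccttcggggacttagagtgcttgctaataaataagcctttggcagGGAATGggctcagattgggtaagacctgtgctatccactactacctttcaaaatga
Ajuba region 4 (intron 1), chr14:54575771-54575876: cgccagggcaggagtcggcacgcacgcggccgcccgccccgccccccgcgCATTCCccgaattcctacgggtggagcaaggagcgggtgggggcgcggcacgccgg
Tead1 region 8 (intron 1), chr7:112720194-112720319: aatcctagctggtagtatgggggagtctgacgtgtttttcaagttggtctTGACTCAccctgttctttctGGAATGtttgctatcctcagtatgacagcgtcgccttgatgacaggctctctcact
The Lats2 stretch held 2 cores in opposite orientation, and its region lay upstream of the gene. In Tead1 region 8 the AP-1 site ended 13 bp before the TEAD core. A match is a description of the letters and does not show that a TEAD protein was bound.

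Every one of the 10 genes had an accessible region at 1 of its own transcript starts, which was also true of 64.1% of all coding genes. Tead1 had the most regions, with 23, and Yap1 the fewest, with 2. The value given for each region is its level, taken to be the mean log2 CPM over all cultures, where CPM are cuts scaled to the size of each library. The 77 levels ran from -0.04 to 6.45 log2 CPM, with a median of 2.83 against 2.12 over the whole map. The regions covered 56798 bp and together carried 1086 CPM. By place, 16 lay within 1000 bp of a start of the gene itself, 7 at a start of another gene only, 38 in introns, 5 on exons, 10 upstream and 1 in Lats2 before the start of its principal transcript.

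**Figure D1:**
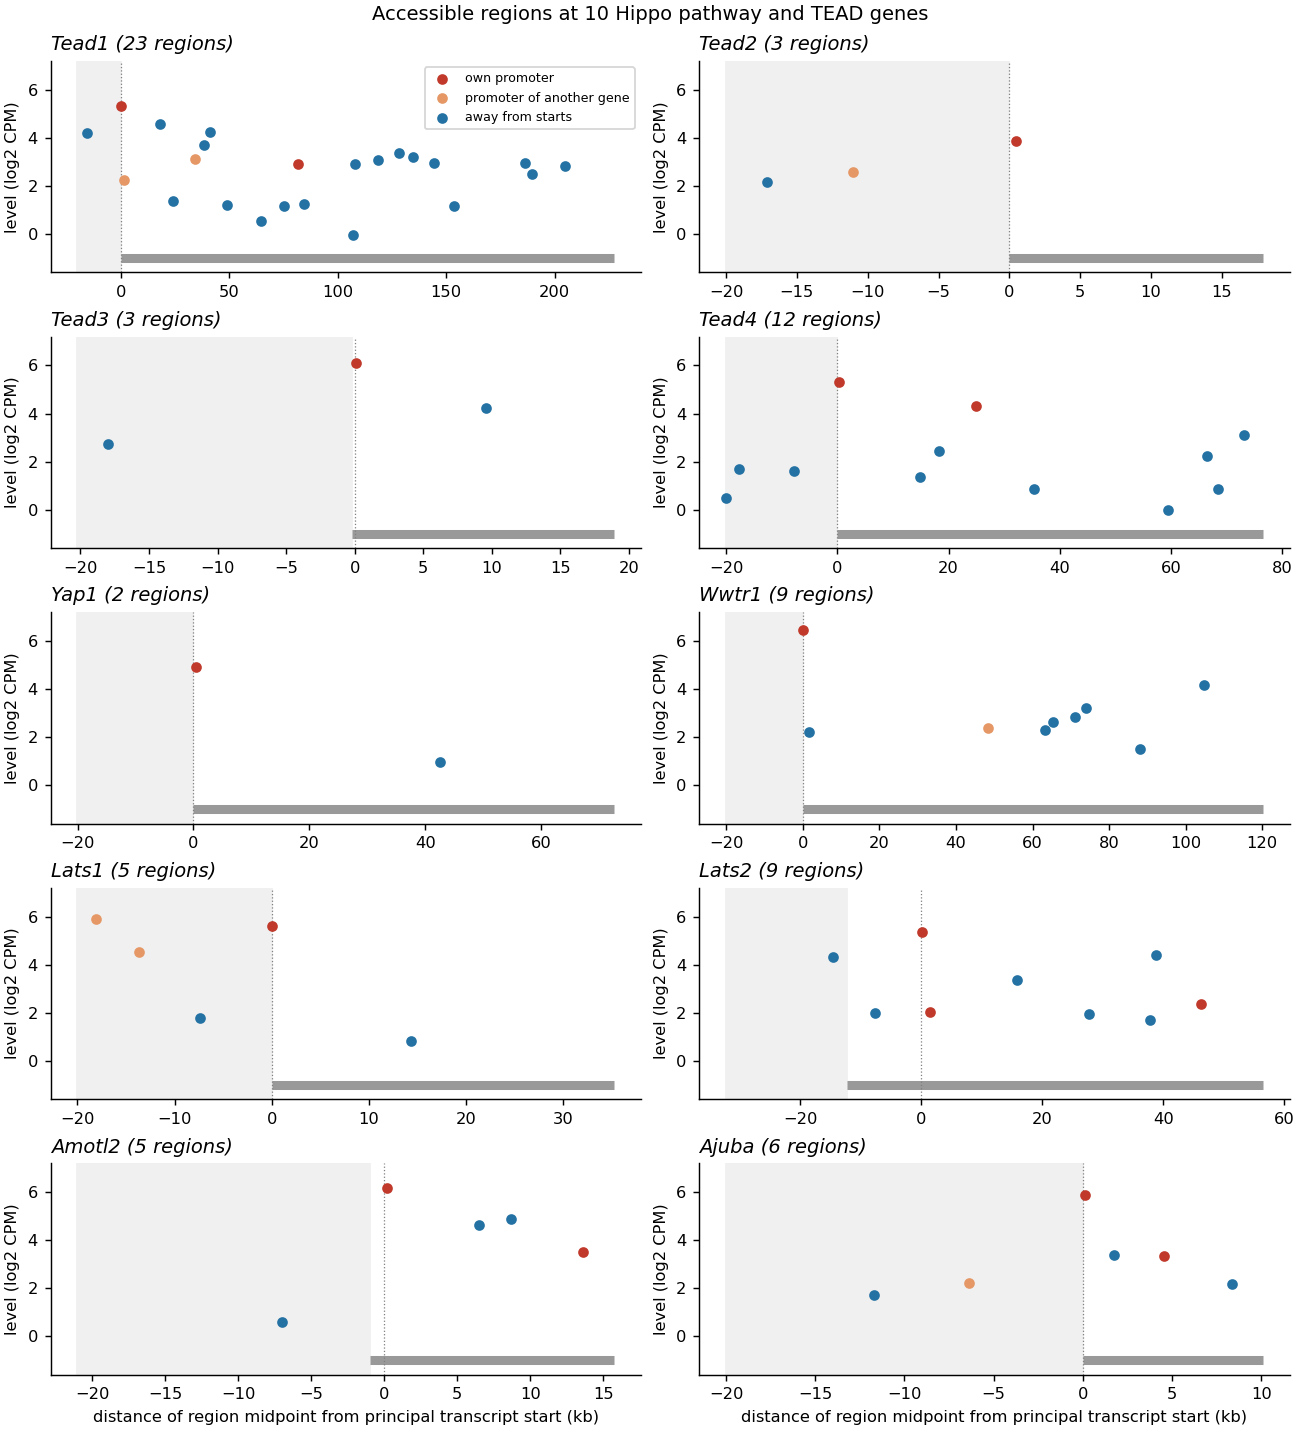
Level of each accessible region (y axis, average log2 CPM over all cultures) against the distance of its midpoint from the start of the principal transcript (x axis, kb), 1 panel per gene, with the gene drawn as a grey bar and the upstream 20 kb shaded. Red points lie at a start of the gene itself, orange points at a start of another gene only and blue points away from starts. The highest point is at the gene's own start in 9 of 10 panels, and in the Lats1 panel it is the orange point of Pcmt1 at 5.92.

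Of the 4 TEAD genes, which encode the DNA-binding partners of YAP1 and TAZ, Tead1 carried a long series of intronic regions. Its gene spans 227490 bp (chr7:112679318-112906807, plus strand), and 18 of its 23 regions were classed as intronic. Of 468 coding genes of similar length (within 20%), 83.3% had fewer regions, and their median was 11. Intron 1 held 7 of the 18 and intron 2 held 8. The promoter region was 1797 bp wide at 5.32 log2 CPM, and the next highest were region 4 in intron 1 (1309 bp, 4.59), region 8 in intron 1 (958 bp, 4.25) and region 1 upstream (1243 bp, 4.22). The promoter and region 12, at a group of starts 80066 bp into the gene, together held 22.2% of the summed CPM of the locus, the lowest share at own starts among the 10 genes. The promoter region itself lay within 1000 bp of a start of 2310014F06Rik. Regions 3 and 6, in intron 1, lay within 1000 bp of starts of 2310014F06Rik and Gm44462 and were counted with Tead1.

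Tead4 had 12 regions over 76536 bp (chr6:128224288-128300823, minus strand), more than 90.1% of 1399 coding genes of similar length, whose median was 5. Counting only regions at least 500 bp wide, it exceeded 54.5%, so its rank rested on narrow regions. The promoter stood at 5.30 log2 CPM, and a region 967 bp wide at a start 25246 bp into the gene stood at 4.30. Most of the other regions were narrow and low, with a median of 1.64 log2 CPM over all 12. Region 12, over an untranslated part of exon 12, was the highest of those away from starts, at 3.11. The 2 starts together carried 63.9% of the summed CPM.

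Tead2 and Tead3 are short genes, of 17892 bp (chr7:45215753-45233644, plus strand) and 19147 bp (chr17:28331671-28350817, minus strand), and each had 3 regions, the median of coding genes of their length. Their levels were unlike each other. The Tead3 promoter reached 6.11 log2 CPM, higher than 85.6% of 14058 coding genes with a promoter region, while the Tead2 promoter reached 3.89, higher than 25.6%. Summed over the locus, Tead3 carried 94.7 CPM, more than 82.8% of similar genes, and Tead2 25.2 CPM, more than 37.1%. Neither difference has a replicate error. Tead3 region 3, over coding exon 2, was 933 bp wide at 4.25 log2 CPM. Tead2 had no region in its body beyond the promoter, its other regions lying upstream, 16930 bp before the gene (354 bp wide, 2.15) and at the start of Ccdc155 (602 bp wide, 2.58).

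Yap1 and Wwtr1, which encode the paired co-activators YAP1 and TAZ, stood apart in how much of each gene was accessible. Wwtr1 had 9 regions over 120262 bp (chr3:57455649-57575910, minus strand), more than 58.4% of 1043 similar genes. Yap1 had 2 over 72598 bp (chr9:7931999-8004596, minus strand), more than 15.1% of 1479 similar genes, whose median was 5. Compared only with similar genes that had a promoter region, Yap1 exceeded 6.13%.

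The Wwtr1 promoter was the highest region at the 10 genes, 1936 bp wide at 6.45 log2 CPM, and higher than 93.0% of coding genes with a promoter region. Beyond it lay 4 regions in intron 2 away from other starts, at 2.23, 2.30, 2.64 and 2.85 log2 CPM, and a broad region in intron 4 (region 9, 1303 bp) at 4.15. Yap1 had a broad promoter region of 1986 bp at 4.94 log2 CPM, close to the middle of coding promoters at the 46.7th percentile. It also lay within 1000 bp of a start of Gm45494. Its second region, in intron 4, was 322 bp wide at 0.97. The promoter held 94.0% of the Yap1 signal and 60.1% of the Wwtr1 signal. In summed CPM, Yap1 carried 32.6, more than 29.3% of similar genes, and Wwtr1 145.6, more than 83.2%.

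The kinase genes Lats1 and Lats2, whose products inactivate YAP1 and TAZ, had 5 and 9 regions. Lats2 (chr14:57689662-57758388, minus strand) exceeded 78.8% of 1535 genes of similar length. Its strongest regions away from starts were region 8 in intron 2 (1200 bp, 4.40 log2 CPM) and the upstream region 1 (1154 bp, 4.31), whose sequence is printed above. The accessible main start of Lats2, at 5.35 log2 CPM, lay 11810 bp inside the annotated gene, and no region lay within 1000 bp of the outermost start. The region at the main start was shared with a start of Gm49361. Lats1 (chr10:7681214-7716460, plus strand) exceeded 64.8% of 2223 similar genes, but 2 of its 5 regions were the starts of its neighbours Pcmt1 (5.92) and Nup43 (4.52). Without regions at other genes' starts, in it and in the similar genes, it exceeded 43.5%, so the higher figure rested on those neighbours. Its own promoter stood at 5.61, also within 1000 bp of a start of Pcmt1, and the single region in its body was 203 bp wide at 0.80. Its highest region away from any start was region 3, upstream, 304 bp wide at 1.77.

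Amotl2 and Ajuba encode junction proteins that act on the core: angiomotin-like 2 binds YAP1 and TAZ and can hold them at junctions and actin, and the LIM protein AJUBA restrains LATS kinases. Both are short genes. Ajuba (chr14:54567472-54577558, minus strand, 10087 bp) had 6, more than 92.0% of 2254 similar genes, and Amotl2 (chr9:102716672-102733418, plus strand, 16747 bp) had 5, more than 77.4% of 2402. With regions at least 500 bp wide alone, Ajuba exceeded 59.4% of similar genes and Amotl2 91.0%. The promoters stood at 5.89 and 6.17 log2 CPM. Amotl2 regions 3 and 4, over coding exon 3 and in intron 5, stood at 4.64 and 4.87, and the gene's 139.2 summed CPM exceeded 93.2% of similar genes, the highest of the 10. In Ajuba, region 4 in intron 1 and region 5 at a start 5476 bp into the gene stood at 3.41 and 3.33.

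Across the 10 genes, 7 had more regions than at least 50% of coding genes of similar length, as did 42.9% of all coding genes, and 8 did so in summed CPM, against 49.8%. Restricting the comparison to similar genes with a promoter region, which all 10 had, also gave 7, against 42.4% of coding genes with one. Of the other 3, Tead2 and Tead3 stood at the median of their similar genes, and Yap1 lay below it. By role, the TEAD factors together held 41, the co-activators 11, the kinases 14 and the 2 junction proteins 11. The rule's limit fell close to a Tead4 region 19860 bp upstream (0.46 log2 CPM), which was counted, while regions 20533 bp upstream of Tead3 (1.51) and 20722 bp upstream of Tead4 (0.14) were not.

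**Figure D2:**
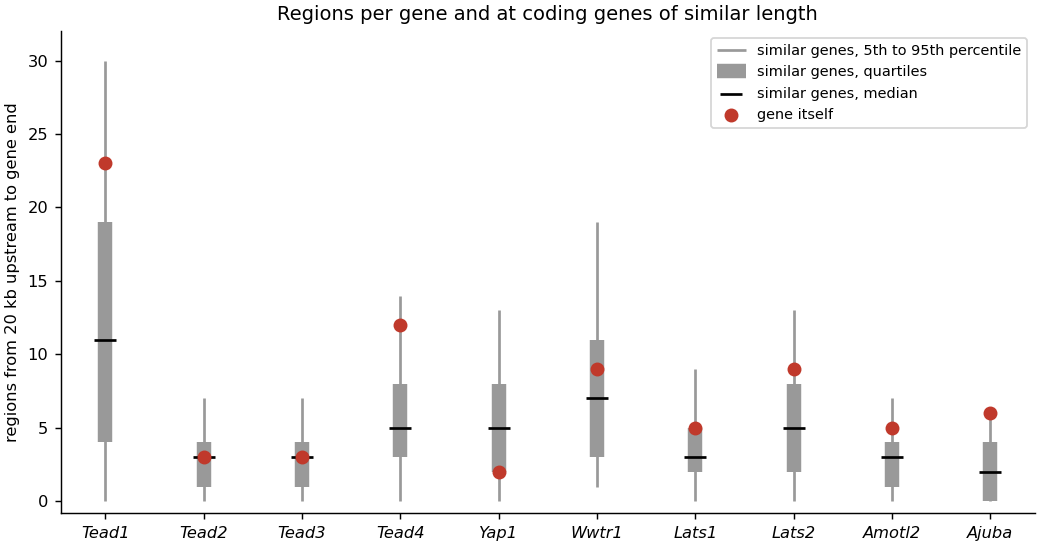
Number of accessible regions from 20 kb upstream to the gene end (y axis) at each of the 10 genes (red points), beside coding genes of similar length, within 20% (thick bar, quartiles; thin line, 5th to 95th percentile; black mark, median). Tead1 at 23, Tead4 at 12, Lats2 at 9, Amotl2 at 5 and Ajuba at 6 lie above the upper quartile of their similar genes, and Yap1 at 2 lies at the lower quartile.

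Level rose with width over the map. Each level was therefore also set against regions of the map of the same kind (within 1000 bp of a transcript start, or not) whose width differed by at most 10%. On this scale the 77 regions sat in the middle: 41 were at or above the 50th percentile and 36 below, with a median of 53.4. The 77 regions were also wider, with a median of 602 bp against 460 bp in the map, and 29.9% lay near a start against 22.7%. Whether width or place accounts for their higher raw median was not tested. By gene, the median percentile ran from 11.5 for Yap1 to 88.7 for Amotl2. Tead3 stood at 80.1, Lats1 at 71.4 and Ajuba at 68.2, while Tead1, with many regions, stood at 39.2 and Wwtr1 at 38.3.

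The regions highest for their width were Wwtr1 region 2 (chr3:57574187-57574391, intron 2), 205 bp wide at 2.23 log2 CPM and the 99.4th percentile, Ajuba region 4 (chr14:54575647-54576020, 374 bp, 3.41) at the 99.0th and Amotl2 region 4 (chr9:102725983-102726696, 714 bp, 4.87) at the 98.8th. Both Wwtr1 region 2 and Ajuba region 4 lay close downstream of a strong promoter region, with midpoints 1539 and 1724 bp after the start. Amotl2 region 4 was 8672 bp into its gene. The lowest were Tead1 region 14 (218 bp, -0.04) at 2.72 and Tead4 region 9 (200 bp, -0.02) at 4.04, both in introns. Among promoters, those of Yap1 and Tead2 were low for their width, at 6.78 and 8.55.

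**Figure D3:**
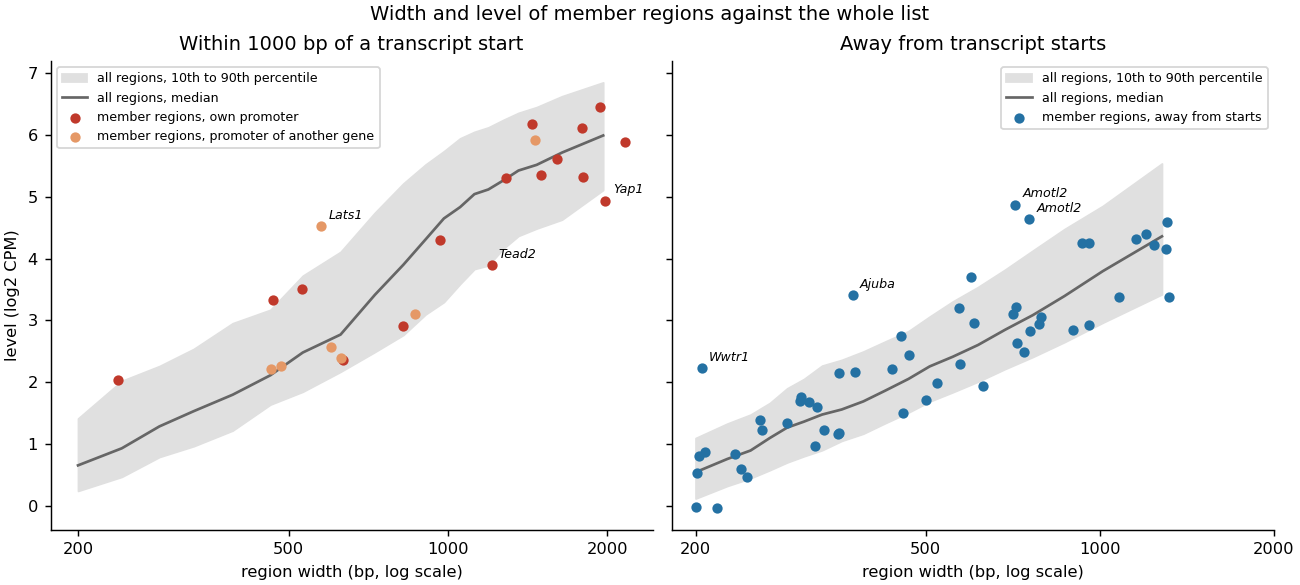
Level (y axis, average log2 CPM) against width (x axis, bp, log scale) of the 77 regions, left within 1000 bp of a transcript start and right away from starts, over the median (line) and the 10th to 90th percentile band of all 94963 regions in bins of width. The Amotl2, Ajuba and Wwtr1 regions named in the plot lie above the band, and the promoters of Yap1 at 4.94 and Tead2 at 3.89 lie below the line.

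Promoter regions of the 10 genes were broad. The highest promoter region of each gene was 1702.5 bp wide in the median, against 1134 bp over the 14058 coding genes with one. In level the medians were 5.48 and 5.03 log2 CPM. Ajuba was the widest at 2164 bp, wider than 98.0% of these genes, followed by Yap1 at 1986 bp (96.2%) and Wwtr1 at 1936 bp (95.4%). Tead2 was the narrowest at 1210 bp. The widths depend on how many cultures contributed peaks, since peaks were merged, and that number was not known for any region.

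Tead2 also differed from the other members in the sequence around its start. A start was called CpG-rich when GC content was at least 55% and CpG dinucleotides reached at least 0.6 of the number expected from base content, within 500 bp on each side. This held for 9 of the 10 genes and for 40.2% of coding genes, with or without a promoter region. The share among coding genes with a promoter region, which all 10 had, was not computed. Tead2 was the exception among the 10, with 58.5% GC and a ratio of 0.59. The bases just upstream of the starts of Wwtr1, the highest promoter, and Tead2, the lowest, are printed from RefSeq (GRCm38.p6) on the gene's strand, up to the annotated first base, with each CG in capitals.
Wwtr1 upstream bases, chr3:57575911-57576160, minus strand: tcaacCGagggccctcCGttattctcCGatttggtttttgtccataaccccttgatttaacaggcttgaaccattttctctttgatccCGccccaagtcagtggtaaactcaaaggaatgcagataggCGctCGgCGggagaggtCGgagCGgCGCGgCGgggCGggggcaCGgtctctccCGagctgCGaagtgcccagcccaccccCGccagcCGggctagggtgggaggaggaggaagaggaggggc
Tead2 upstream bases, chr7:45215542-45215752, plus strand: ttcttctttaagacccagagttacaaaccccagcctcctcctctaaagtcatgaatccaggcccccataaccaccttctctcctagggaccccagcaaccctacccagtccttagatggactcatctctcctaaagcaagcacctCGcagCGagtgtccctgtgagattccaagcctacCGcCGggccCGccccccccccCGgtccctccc
The Wwtr1 stretch held 18 CG in 250 bases, or 7.2 per 100 bases, and the Tead2 stretch 6 in 211 bases, or 2.84. Over 32851 RefSeq promoters the median was 2.40, with quartiles of 0.80 and 6.40. Wwtr1 thus lay above the upper quartile and Tead2 between the quartiles.

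In RefSeq promoters of 300 bases (250 before the start and 50 after), a TEAD core was present in 14.7% of all. The table matched 8 of the 10 genes with 12 promoters, and 8 promoters of Ajuba, Amotl2, Lats2, Tead3, Wwtr1 and Yap1 held a core. Promoters of 1 gene overlap, so these are not independent. The 14.7% is a share of promoters, and no share by gene or for promoters of like base content was computed. Tead1 and Tead4 were not matched.

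Within the accessible regions, the share with a TEAD core lay near that of other regions of like width. The 95% Wilson interval of the 37.7% given above, 27.7 to 48.8, held both of the shares set beside it. Away from starts the share was 18 of 54, 33.3% against 34.1%, and near starts 11 of 23, 47.8% (29.2 to 67.0) against 39.8%. The highest promoter region of a gene held a core in 8 of 10 genes, against 37.9% of coding genes with a promoter region. Map regions of like width near a transcript start of any gene held one in 51.1%, averaged over the 10 genes. In their highest promoter regions Wwtr1 and Tead3 had 4 cores each, Tead1, Tead4 and Amotl2 3 each, Yap1 and Ajuba 2 each, Lats2 1, and Tead2 and Lats1 none. The intervals cover counting only, and regions of 1 gene share their surroundings.

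By role, cores were present in 15 of 41 regions of the TEAD genes, 6 of 11 of the co-activators, 6 of 11 of the junction proteins and 2 of 14 of the kinases, with Lats1 at 0 of 5. Over all 77 regions the share was 37.7%, and over the whole map 31.5%. The share in regions of like width was not computed by role or by gene, and no difference between roles was tested. In Ajuba, 4 of 6 regions held a core, and region 5 alone held 3. The longer form ACATTCC was present in 12 regions, 15.6% against 12.5% in regions of like width. Near starts it was present in 6 of 23, 26.1% (12.5 to 46.5) against 12.3%, so the interval began just above the share beside it. Away from starts it was present in 6 of 54, 11.1% against 12.6%. The interval covers counting only, and several motifs were looked at.

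AP-1 sites and hypoxia response elements (HRE, ACGTG or GCGTG, the core bound by HIF) gave shares near those of the map. AP-1 sites occurred in 14 of 77 regions, 18.2% (11.2 to 28.2), against 22.1% of the map and 23.8% of regions of like width. Of the 14, 6 were at Tead1, 3 at Wwtr1 and 1 near a start, in the Yap1 promoter. Near starts the share was 4.35% (0.77 to 21) against 19.1%. An HRE core was present in 42 regions, 54.5% (43.5 to 65.2), against 46.2% of the map and 53.3% of regions of like width. Near starts the share was 78.3%, against 79.4% of regions of like width. The highest promoter regions of the 10 genes held from 1 HRE core, at Tead1, to 12, at Lats2, with 10 at Yap1. The number of cores to be expected from width and base content was not computed. Both TEAD and AP-1 matches were present in 5 regions, and only in Tead1 region 8 did they lie within 100 bp of each other, or 1.30% (0.23 to 7.0) against 3.69% of the map. None of the 3 motifs was present in 21 regions. The share of the map with TEAD and AP-1 matches at any distance, or with none of the 3 motifs, was not computed. All motifs were searched on both strands. The ends of an AP-1 site can overlap those of a TEAD or an HRE core, and such matches counted for both motifs.

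**Figure D4:**
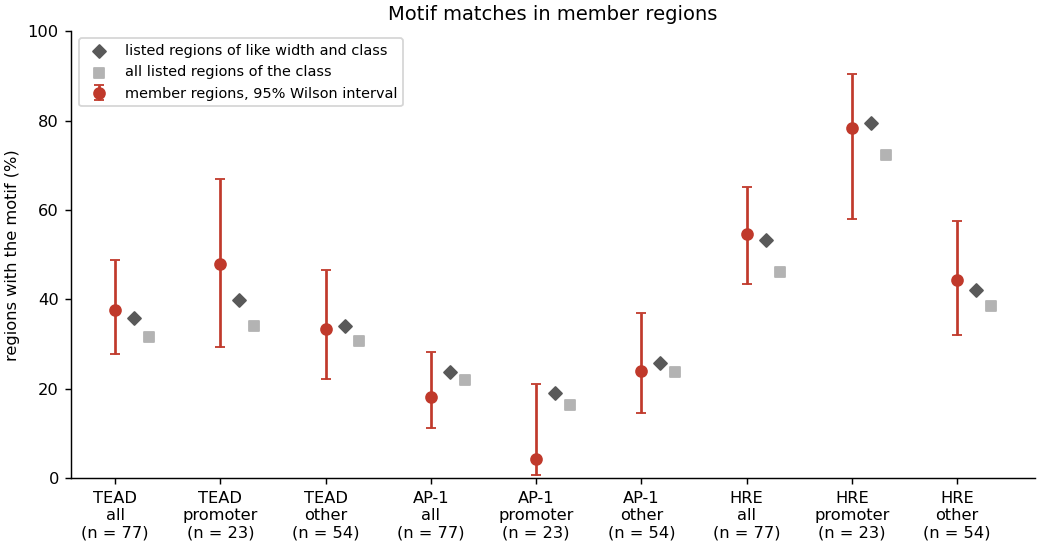
Share of regions with a TEAD, AP-1 or HRE match (y axis, percent) among the regions at the 10 genes (red points, with 95% Wilson intervals), in regions of the map of like width and kind (dark diamonds) and in all regions of that kind (grey squares), over all regions, those near starts and the others. The red intervals hold the dark diamond in each of the 9 columns, and the widest gap is that of AP-1 near starts, 4.35% against 19.1%.

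The remaining pathway was described with 41 further genes in 4 lists by role. A region was found at 40 of them and a promoter region at 39, against 64.1% of all coding genes, the exceptions being Vgll1, a TEAD cofactor with none, and Gadd45b, with 1 region away from its starts. Relative to coding genes of similar length, 28 of the 41 had more regions than at least 50%, against 42.9% of all coding genes, and the median was 75.4%. Among the 39 with a promoter region, compared only with similar genes that had one, 27 did so, against 42.4%, and the median was 69.0%. Against all similar genes, with or without a promoter region, the highest of the 41 were Limd1, Vgll4 and Map4k4 and the lowest Vgll1, Mob1b and Fat4. Other genes of the lists named in what follows were chosen after their values were seen.

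Of 16 target genes of YAP1 and TAZ, 15 exceeded at least 50% of similar genes, against 42.9% of all coding genes, with a median of 83.3% and 179 regions in all. Among the 15 with a promoter region, 14 did so against similar genes with one, Foxf2 moving from 52.3% to 15.3%. Ccn2 and Ccn1, matricellular proteins formerly named Ctgf and Cyr61, had 4 regions each, more than 81.7% and 83.2% of similar genes, with promoters at 6.12 and 4.30 log2 CPM. Ankrd1, a muscle ankyrin repeat protein much used as a readout of YAP1, had 4 regions but a promoter of only 1.21. Asap1, a GTPase-activating protein of adhesion sites, had 43, and the kinase gene Nuak2 had 8, at 97.7% and 97.4%.

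The kinase core had a median of 60.7%, with 3 of 6 genes above 50%, near the 42.9% of all coding genes. Nf2, the merlin tumour suppressor, had 12 regions (87.0%), Stk4 10 (77.2%) and the scaffold gene Sav1 5 (74.5%), while Stk3 had 7 (34.1%) and the LATS cofactors Mob1a and Mob1b had 3 (46.8%) and 1 (10.0%). Every promoter of the core was accessible, between 5.32 and 6.25 log2 CPM. Of 15 upstream regulators, with a median of 57.1%, 8 exceeded at least 50%, again near the background of 42.9%, led by Limd1, a LIM protein related to AJUBA, with 14 regions (99.3%) and the kinase gene Map4k4 with 24 (98.8%). Ptpn14, a phosphatase that binds YAP1, had the highest promoter level of the 41 genes, 6.77, and the cadherin gene Dchs1 the lowest, 0.84. Fat4, another large cadherin, had 4 regions (26.4%). Among the TEAD cofactors, Vgll4 had 23 regions (98.9%) and Vgll3 12 (96%), while Vgll2 had 1, at 0.96 log2 CPM.

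**Figure D5:**
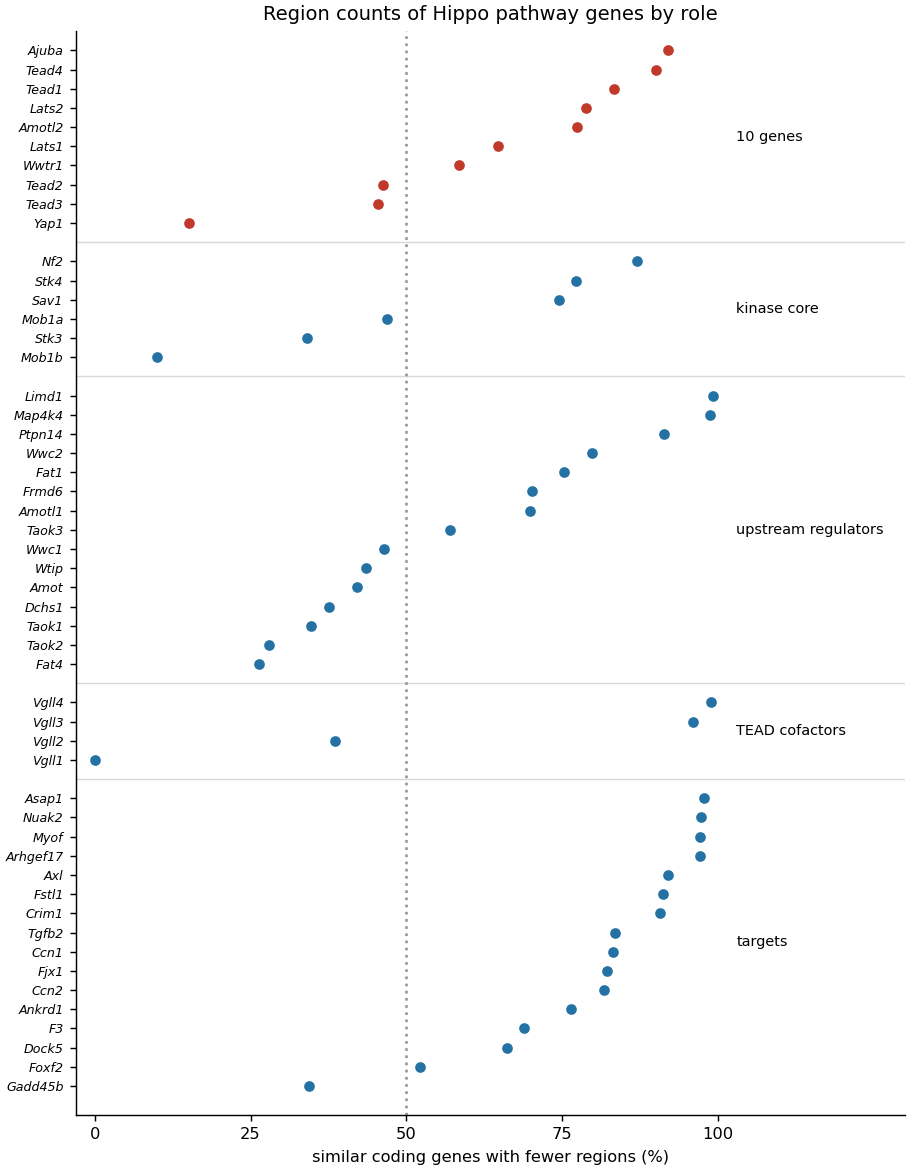
Percent of coding genes of similar length that had fewer accessible regions (x axis), for each of the 10 genes (red) and 41 further pathway genes (blue) by role. Of 16 targets 15 lie to the right of the dotted line at 50%, and Yap1 (15.1%), Mob1b (10.0%) and Vgll1 (0%) lie farthest to the left.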

How the data were processed

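MPC2 cultures were profiled by ATAC-seq in 4 groups (11 samples). Per the methods, a sample of poor quality had been left out by the authors, and it is not analysed here. Per the study's methods, the authors trimmed reads, aligned them to mm10 with Bowtie2, removed duplicates with Picard (2.17.8 in the submitters' processing notes), called peaks with MACS2 (2.2.7.1), merged them over samples, removed blacklisted regions, counted cuts per region and normalised with edgeR (3.24.3). Whether cut positions were moved to allow for Tn5 is not given in the sources used here. The deposited list had no header. Its value was read as the authors' average log2 CPM over all samples, because 460 values were below 0 and the values, taken out of log2, added up to 1.01276e+06. No value per sample was given, so no test between groups was run and depth was unknown.

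Coordinates are 1-based. A region was placed by GENCODE vM21, and the principal transcript was chosen by the basic tag, APPRIS and length. Motif shares in regions of like width were averaged over the 77 regions. Counting and matching were tested on simulated data. By rule, the text named for each of the 10 genes its region counts, promoter and highest region away from starts, and of 41 pathway genes those without a region or promoter region and the 3 highest and 3 lowest percentages. Members, lists and rules were chosen with earlier results of these data known. Alternatives were other upstream distances, widths, comparison genes, promoter windows and motifs. Python 3.11.15, numpy 2.4.6, pandas 2.3.3, scipy 1.17.1 and matplotlib 3.10.9 were used.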

Additional observations from a re-analysis of the deposited data

How the results depend on the processing

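No paired analysis was possible because each region came with only 1 pooled value. Of 100 alternative values for the summary results, 92 stayed within their counting interval or 1.5 times the count. Regions at least 500 bp wide numbered 46 in place of 77, by construction, and held HRE cores in 71.7%, against 69.2% in regions of like width. The TEAD share was 15.6% with ACATTCC, 61.0% with ATTCC (65.8% in regions of like width) and 15.6% in the central 200 bp of each region (13.5%). In the central 200 bp AP-1 sites were present in 5.20% (11%) and HRE cores in 23.4% (25.9%), and ACGTG alone was present in 33.8% (32.7%). These motif and length changes lower or raise a share by construction, in the map as in the 77 regions.

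The comparison with similar genes changed sides of 50% for Lats1, at 46.4% with 10 kb upstream, 41.9% with 50 kb and 43.5% without regions at other genes' starts. With 10 kb upstream Tead2 stood at 17.1%. Tead2 changed sides at 76.2% with 50 kb, 54.0% with regions of at least 500 bp and 50.6% on the same chromosome, and Tead3 at 68.0%, 53.4% and, without regions at other genes' starts, 55.4%. The cause was not tested. With regions of at least 500 bp Tead4 fell from 90.1% to 54.5% and Ajuba from 92.0% to 59.4%, since narrow regions were left out. Yap1 stayed between 6.13% and 24.1%, and Tead1 between 79.9% and 93.0%. Leaving out each gene in turn gave TEAD shares of 35.1% to 40.7%, AP-1 shares of 14.8% to 20%, HRE shares of 52.3% to 57.4%, a median level percentile of 48.5 to 62.3 and a median promoter level of 5.35 to 5.61. With 1 pooled value per region, a region open in only some cultures cannot be told apart from a weak region open in all.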

Other observations

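Some inner transcript starts of the 10 genes had an accessible region and others had none, where starts within 1000 bp of each other were grouped. Of 31 groups of starts, main starts included, 16 had a region. The share among all coding genes was not computed. In Tead1, 6 annotated starts lay 80066 bp inside the gene, where region 12 stood at 2.91 log2 CPM, against 5.32 at the main start. No region lay at the Tead1 starts 12380, 62727 and 160316 bp into the gene. The inner start of Tead4 was nearer to its main start in level, at 4.30 against 5.30. Lats2 had an accessible inner start 58498 bp into the gene at 2.37, and Amotl2 had one 14059 bp in at 3.51. No region lay at the Lats2 starts 24088 bp in or at the Amotl2 starts 3615, 5644 and 11659 bp in. The inner starts of Tead2 and Tead3 had none. In Yap1 neither of the inner start groups, 2893 and 38775 bp into the gene, had a region, and the inner start of Lats1 at 10033 bp had none either. Whether the RNA of the inner starts was made was not measured in this list.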
